A study of Mus musculus with 31 samples.

Results

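The question was whether tunicamycin changes the same liver genes, and by the same amount, in mice with and without IRE1α. For each gene the interaction is the tunicamycin response of Ire1 ko liver minus that of WT liver, on the log2 scale of the array intensity. A positive interaction means that the response was higher in Ire1 ko, and a negative one that it was lower. It was taken from 15 of the 31 liver arrays of the series: 4 of Ire1 ko mice given tunicamycin, 3 of untreated Ire1 ko mice, 4 of WT mice given tunicamycin and 4 of untreated WT mice labelled as littermates of Ire1 ko. All mice were males aged 14 weeks, and each array held total liver RNA of what the labels call a separate biological replicate. Both tunicamycin groups were labelled with a dose of 2 mg/kg and a time of 6 h. Ire1 ko mice are labelled with a mixed strain background and WT mice with C57BL/6, so strain and genotype cannot be told apart if those labels hold. The WT mice given tunicamycin are not labelled as littermates. The untreated groups are labelled as fed, the feeding state of the treated mice is not labelled and no vehicle group is labelled. An effect of the drug therefore cannot be told apart from one of injection or feeding. How the Ire1 gene was deleted, and in which cells, is not given in the sources used here.

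Tunicamycin blocks the first step of N-glycosylation, so unfolded glycoproteins build up in the endoplasmic reticulum (ER) and start the unfolded protein response. IRE1α, encoded by Ern1, is one of its sensors: it splices the Xbp1 mRNA so that the transcription factor XBP1s is made, a driver of secretory pathway genes in liver, and it can also cleave other mRNAs at the ER, which is known as regulated IRE1-dependent decay. The sensors PERK, which acts through the transcription factor ATF4, and ATF6, which activates chaperone genes, form the other arms.

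The values were probe set intensities whose median was 5 on every array, and 16 was reached by 20% to 23% of probe sets, depending on the array. Values of about 4 to 7 lie at this floor, where a fold depends on the floor. Arrays of the same group correlated at 0.984 to 0.993, and 0 pairs of arrays were identical. Untreated Ire1 ko replicate 3 stood apart: its median log2 intensity over brighter probe sets deviated by -0.273 from the mean of the 15 arrays, further than that of any other array. In untreated Ire1 ko replicate 1 the summed intensity of 16 macrophage markers was 3210, against 785 to 2128 on the other arrays. The 12 hepatocyte markers measured summed to 51395 or more on every array. Whole tissue was measured, so fewer cells of a type and less RNA per cell cannot be told apart.

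Ern1, the targeted gene, had an intensity of 393, 467, 270 and 360 in Ire1 ko with tunicamycin and 150, 153 and 148 in untreated Ire1 ko. It had 212, 304, 272 and 219 in WT with tunicamycin and 136, 121, 203 and 137 in untreated WT. The untreated genotypes overlapped, with a difference of 0.04 on the log2 scale (adjusted p = 0.957), so this probe set does not show the deletion, and whether it lies outside the deleted stretch is not given. Ern1 rose with tunicamycin by 1.28 in Ire1 ko and by 0.77 in WT, and the interaction did not pass the test (0.51 ± 0.26 SE, adjusted p = 0.295).

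Xbp1, whose mRNA IRE1α splices, rose in Ire1 ko and did not pass the test in WT, and the difference between these responses passed the test. It had 1696, 1642, 1491 and 1732 in Ire1 ko with tunicamycin and 784, 715 and 765 in untreated Ire1 ko, against 1047, 967, 884 and 823 in WT with tunicamycin and 904, 880, 1151 and 799 in untreated WT. The Ire1 ko groups did not overlap, while the WT groups did. The interaction was 1.12 ± 0.15 (SE, adjusted p = 0.000171). The array intensity does not separate spliced from unspliced Xbp1 mRNA.

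Across 15172 genes tested, the interaction passed an adjusted p of 0.05 for 1142 genes, or 7.53%. It was higher in Ire1 ko for 543 genes (3.58%) and lower for 599 (3.95%), and without untreated Ire1 ko replicate 3 for 358 and 618 genes. It reached 2-fold or more for 191 higher and 328 lower genes. The median interaction of all genes tested was 0.05. For comparison, 27.7% of genes responded to tunicamycin in Ire1 ko, 2634 upwards (17.4%) and 1570 downwards (10.3%), and 36.1% in WT, 2807 upwards (18.5%) and 2677 downwards (17.6%). When the arrays were shifted to share one median of their brighter probe sets, the splits became 1874 up and 3427 down in Ire1 ko and 2355 up and 4095 down in WT. With quantile normalization they were 2101 and 2132 in Ire1 ko and 2643 and 3002 in WT. That shift moved the Ire1 ko response by 0.18, the WT response by 0.13 and the interaction by 0.05.

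The responses of the genotypes share no array. Of the genes that rose in Ire1 ko 72.3% also rose in WT, which was 67.9% of those that rose in WT, and 1905 genes were in both sets. Of the genes that fell in Ire1 ko 82.5% also fell in WT, which was 48.4% of those that fell in WT, 1296 genes in all. A response called in opposite directions was seen for 26 genes that rose in WT and 23 that fell in WT. Across genes, which are not independent, the correlation of the responses was 0.812 by Pearson and 0.695 by Spearman, given as a description.

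Each gene with a called interaction was placed by the ratio of its responses. Where the WT response had passed the test, the response was called lost if that of Ire1 ko was under 1/3 of it in either direction, blunted if it was between 1/3 and the whole, enlarged if it was greater and reversed if it exceeded 1/3 in the opposite direction. A response called in Ire1 ko and not in WT was called gained. Lost responses were the most frequent, with 506 genes: 333 that rose in WT and 173 that fell. Blunted responses followed with 307 genes, 177 up and 130 down. Another 153 genes gained a response, 120 up and 33 down, 51 had an enlarged one, 46 up and 5 down (30 in all without untreated Ire1 ko replicate 3), and 115 a reversed one, 48 up in WT and 67 down. A further 1646 genes responded alike within limits: the interaction was not called and its 95% confidence interval lay within 1.5-fold in either direction. For 3660 genes with a response the interval was wider, and whether their responses differed is undecided at this number of arrays. The names of the patterns do not mean that the Ire1 ko response was 0: it passed the test in 63 of the 333 lost upward genes, with a median of 0.19 against 1.44 in WT. Nor does a reversed response mean that the opposite response of Ire1 ko passed the test, which it did in 48 of the 115 genes.

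**Figure D1:**
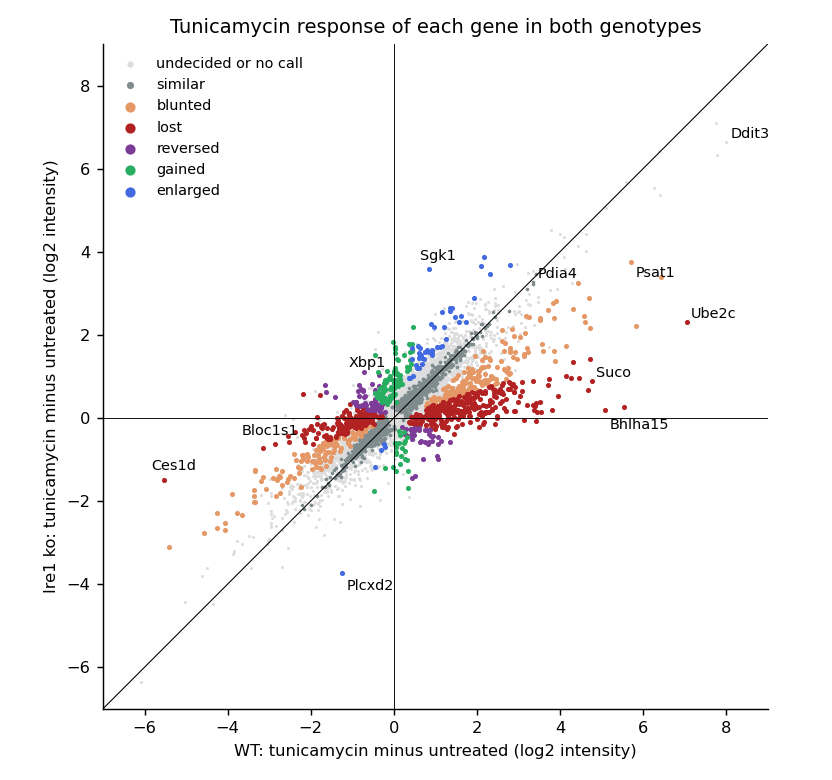
Each point is a gene that reached a group mean intensity of 16. The vertical axis is the tunicamycin response of Ire1 ko and the horizontal axis that of WT, both as differences of mean log2 intensity, and colours mark the pattern. Lost genes lie along the horizontal zero line, such as Bhlha15 with 0.19 in Ire1 ko and 5.09 in WT, while similar genes lie along the diagonal, such as Pdia4 with 3.27 in Ire1 ko and 3.36 in WT.

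Untreated Ire1 ko and WT livers differed in 143 of all genes tested (0.943%), 12 higher (0.0791%) and 131 lower (0.863%) in Ire1 ko. Among the 506 lost genes 43 differed there, and among the 307 blunted genes 28. With tunicamycin 2759 genes differed between Ire1 ko and WT (18.2%), 1469 higher (9.68%) and 1290 lower (8.5%). These genotype contrasts share arrays with the interaction and are given beside it.

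The lowest interactions included genes near the floor in all groups but WT with tunicamycin. Bhlha15, which encodes the transcription factor MIST1 of secretory cells, had 5, 6, 5 and 7 in Ire1 ko with tunicamycin and 5 on each untreated Ire1 ko array, against 179, 190, 163 and 151 in WT with tunicamycin and 5 on each untreated WT array. The interaction was -4.90 ± 0.18 (SE, adjusted p = 1.74e-10). Far1, an enzyme that makes fatty alcohols for ether lipids, had 5, 6, 6 and 7 in Ire1 ko with tunicamycin and 6, 5 and 4 in untreated Ire1 ko, against 520, 241, 189 and 181 in WT with tunicamycin and 5, 6, 6 and 5 in untreated WT. For both genes the WT mice given tunicamycin stood apart from all other arrays without overlap.

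Ube2c, a ubiquitin-conjugating enzyme of the anaphase-promoting complex, was not at the floor in treated Ire1 ko. It had 26, 11, 28 and 48 in Ire1 ko with tunicamycin and 5 on each untreated Ire1 ko array, against 1067, 989, 438 and 728 in WT with tunicamycin and 6, 6, 5 and 6 in untreated WT. It rose in both genotypes, by 2.32 in Ire1 ko and 7.05 in WT. Suco, an ER membrane protein needed for collagen output in bone, had 39, 33, 38 and 52 in Ire1 ko with tunicamycin and 23, 24 and 18 in untreated Ire1 ko, against 535, 574, 538 and 518 in WT with tunicamycin and 21, 18, 19 and 22 in untreated WT. Its interaction was -3.87 ± 0.20 (SE, adjusted p = 1.25e-08). Tspyl2, of the nucleosome assembly protein family, Isg20, an RNA exonuclease, and Kctd7 had interactions of -4.01, -3.49 and -3.49.

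Genes of transport between ER and Golgi formed the list with the most called members. Of 44 measured members the interaction was lower in 32 and higher in 0, with a median of -0.79 against 0.05 for all genes. In WT 39 rose and 2 fell, with a median response of 1.06. In Ire1 ko 15 rose and 5 fell, with a median of 0.16, which became 11 up and 11 down with a median of -0.02 when arrays shared one median, and 15 up and 7 down with quantile normalization. The response was lost for 23 members, blunted for 4, reversed for 5 and similar for 3. In treated liver 40 were lower in Ire1 ko than in WT and 0 higher, and in untreated liver 15 were lower and 0 higher.

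Stx5a, a SNARE protein that fuses ER-derived vesicles with the Golgi, had 241, 236, 275 and 310 in Ire1 ko with tunicamycin and 193, 179 and 175 in untreated Ire1 ko. It had 1484, 1331, 1489 and 1394 in WT with tunicamycin and 290, 235, 283 and 265 in untreated WT. Both responses were upward without overlap, by 0.53 in Ire1 ko and 2.41 in WT, and the interaction was -1.88 ± 0.14 (SE, adjusted p = 6.56e-07). Sec16a, which organises the ER exit sites, had 171, 167, 163 and 177 in Ire1 ko with tunicamycin and 252, 254 and 240 in untreated Ire1 ko, against 575, 718, 652 and 664 in WT with tunicamycin and 303, 290, 298 and 299 in untreated WT. It moved in opposite directions without overlap, falling in Ire1 ko by 0.55 and rising in WT by 1.13. The other members named were Arfgap3, a regulator of Golgi Arf proteins, with an interaction of -3.11, Kdelr3, a receptor that returns ER proteins from the Golgi, with -2.72, the cargo receptor Tmed3 with -1.76, the transcription factor Creb3l2 with -1.52, the SNARE protein Sec22b with -1.09 and the COPII coat subunit Sec24d with -1.21.

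Of 22 measured genes of translocation into the ER and signal peptide cleavage, 17 had a lower interaction and 0 a higher one, with a median of -0.76. In WT 19 rose and 1 fell, with a median response of 0.93, while in Ire1 ko 7 rose and 2 fell, with a median of 0.09. Untreated Ire1 ko liver was already lower than WT in 14 of them and higher in 0. Sec61b, a subunit of the translocation channel, had 110, 85, 105 and 119 in Ire1 ko with tunicamycin and 173, 156 and 137 in untreated Ire1 ko, against 847, 811, 887 and 772 in WT with tunicamycin and 406, 516, 524 and 407 in untreated WT. It fell in Ire1 ko by 0.57 and rose in WT by 0.85, and the untreated genotypes did not overlap (difference -1.57, adjusted p = 8.36e-06). Ssr1, a subunit of the translocon-associated complex, had 175, 168, 172 and 196 in Ire1 ko with tunicamycin and 210, 200 and 213 in untreated Ire1 ko, against 927, 1048, 1010 and 868 in WT with tunicamycin and 385, 392, 398 and 379 in untreated WT. Its interaction was -1.53 ± 0.11 (SE, adjusted p = 6.29e-07). Srprb, of the signal recognition particle receptor, and Sec61a1, the pore of the channel, had interactions of -2.28 and -1.02.

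**Figure D2:**
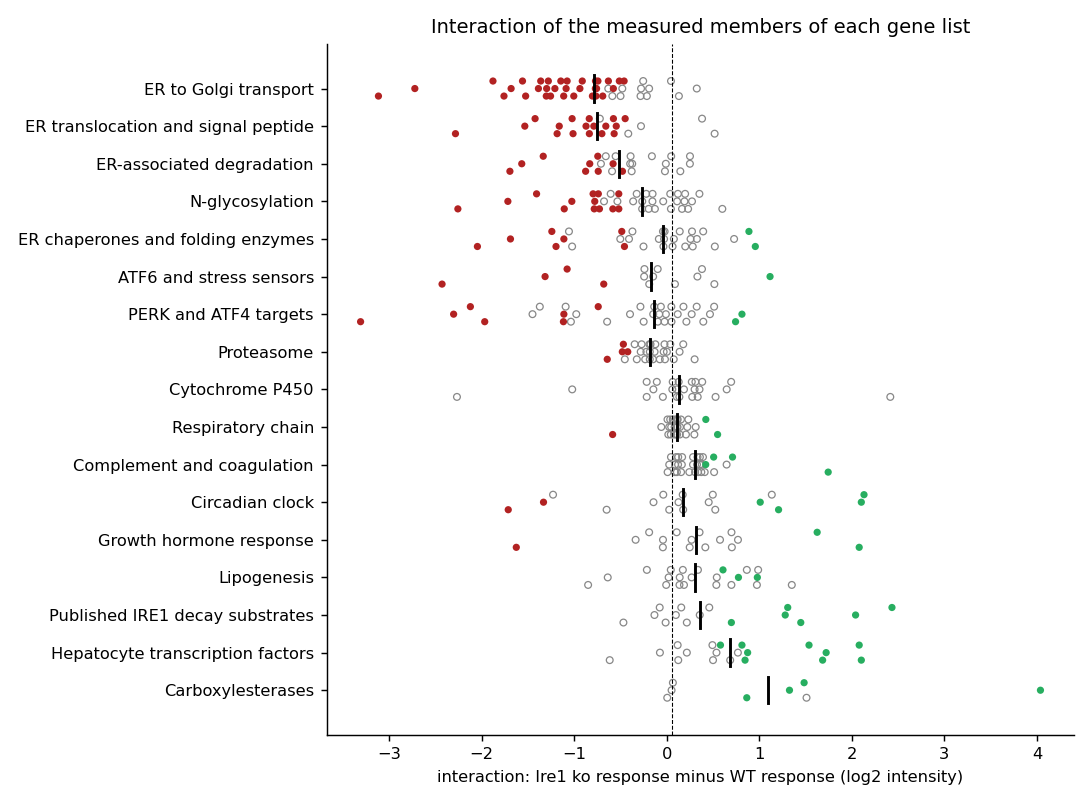
Each point is a measured gene of a list, and the horizontal axis is its interaction in log2 intensity. Filled points passed the adjusted p of 0.05 (red lower, green higher in Ire1 ko), open points did not, black bars mark list medians and the dashed line the median of all genes tested, 0.05. The medians run from -0.79 for ER to Golgi transport to 1.10 for the carboxylesterases.

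Genes that make and attach N-glycans, the process that tunicamycin blocks, were divided. The interaction was lower for 13 of 37 measured members and higher for 0, with a median of -0.27, and 7 members responded alike. In WT 25 rose and 2 fell, and in Ire1 ko 17 rose and 3 fell, of which the falls were 6 when arrays shared one median and 0 without untreated Ire1 ko replicate 1. Pgm3, an enzyme on the way to UDP-N-acetylglucosamine, had 20, 13, 19 and 24 in Ire1 ko with tunicamycin and 26, 20 and 19 in untreated Ire1 ko, against 201, 189, 189 and 170 in WT with tunicamycin and 45, 37, 56 and 45 in untreated WT. Its Ire1 ko groups overlapped and its WT groups did not, with an interaction of -2.26 ± 0.26 (SE, adjusted p = 3.3e-05). Gmppa and Gmppb, the subunits of the enzyme that makes GDP-mannose, had interactions of -1.72 and -1.41, and Stt3a, a catalytic subunit of the oligosaccharyltransferase, had -1.11.

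For ER-associated degradation, which removes misfolded proteins, the interaction was lower for 9 of 24 measured members and higher for 0, with a median of -0.52. In WT 18 rose and 1 fell, and in Ire1 ko 16 rose and 1 fell. Of the called members 7 were blunted, 1 was lost and 1 reversed. Edem3, which trims mannose from misfolded glycoproteins, had 136, 121, 116 and 143 in Ire1 ko with tunicamycin and 78, 83 and 66 in untreated Ire1 ko, against 432, 444, 468 and 484 in WT with tunicamycin and 76, 86, 98 and 104 in untreated WT. Both responses were without overlap, 0.77 in Ire1 ko and 2.34 in WT. The related Edem2 fell in Ire1 ko by 0.98 and rose in WT by 0.71. Selenok had an interaction of -1.33. The ubiquitin ligase Syvn1 rose by 3.09 in Ire1 ko and 3.75 in WT, and Derl3 by 5.54 in Ire1 ko and 6.26 in WT, and neither interaction passed the test (adjusted p = 0.107 and 0.543).

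Of 31 measured chaperones and folding enzymes of the ER 26 rose and 1 fell in Ire1 ko, with a median response of 1.22, and 27 rose and 1 fell in WT, with a median of 1.61. The median interaction was -0.04, with 7 members lower and 2 higher, while 10 members responded alike and 10 were undecided. Similar responses did not mean equal levels. In treated liver 18 members were lower in Ire1 ko than in WT and 0 higher, with a median difference of -0.43. In untreated liver 11 were lower and 0 higher, with a median difference of -0.42. Hspa5, the chaperone BiP that binds all the sensors, had 3347, 3262, 3333 and 2879 in Ire1 ko with tunicamycin and 763, 823 and 869 in untreated Ire1 ko, against 4057, 3646, 3764 and 3776 in WT with tunicamycin and 872, 880, 1195 and 901 in untreated WT. It rose 3.92-fold in Ire1 ko and 3.99-fold in WT without overlap, and the interaction was -0.03, with a 95% interval of -0.31 to 0.25. Dnajb11, a co-chaperone of BiP, had 1215, 1135, 1282 and 1231 in Ire1 ko with tunicamycin and 237, 206 and 187 in untreated Ire1 ko, against 1959, 1963, 1867 and 2063 in WT with tunicamycin and 395, 396, 414 and 296 in untreated WT. The responses were 5.81-fold in Ire1 ko and 5.27-fold in WT, and its level was lower in Ire1 ko in the untreated state too (difference -0.83, adjusted p = 0.000544). Pdia4, a disulfide isomerase, rose 9.68-fold in Ire1 ko and 10.3-fold in WT, and Atp2a2, the ER calcium pump, which is outside the list, 5.97-fold in Ire1 ko and 6.84-fold in WT.

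Among the folding enzymes with a lost response, Txndc5, a disulfide isomerase, had 335, 298, 349 and 375 in Ire1 ko with tunicamycin and 295, 313 and 322 in untreated Ire1 ko. It had 1296, 1546, 1536 and 1349 in WT with tunicamycin and 535, 552, 557 and 570 in untreated WT. The Ire1 ko groups overlapped and the WT groups did not, and the interaction was -1.24 ± 0.12 (SE, adjusted p = 8.19e-06). Dnajc10, a disulfide reductase that serves ER-associated degradation, and Erp29 had interactions of -1.69 and -1.20. Pdia5 gained a fall: it had 99, 95, 101 and 148 in Ire1 ko with tunicamycin and 478, 278 and 330 in untreated Ire1 ko, against 372, 455, 422 and 381 in WT with tunicamycin and 323, 309, 422 and 245 in untreated WT. The fall of 1.70 in Ire1 ko was without overlap, while the WT groups overlapped. Manf, a secreted ER stress protein, rose 12.8-fold in Ire1 ko and 6.91-fold in WT (interaction 0.89 ± 0.21 SE, adjusted p = 0.0166), and untreated it was lower in Ire1 ko (difference -1.15, adjusted p = 0.000711).

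**Figure D3:**
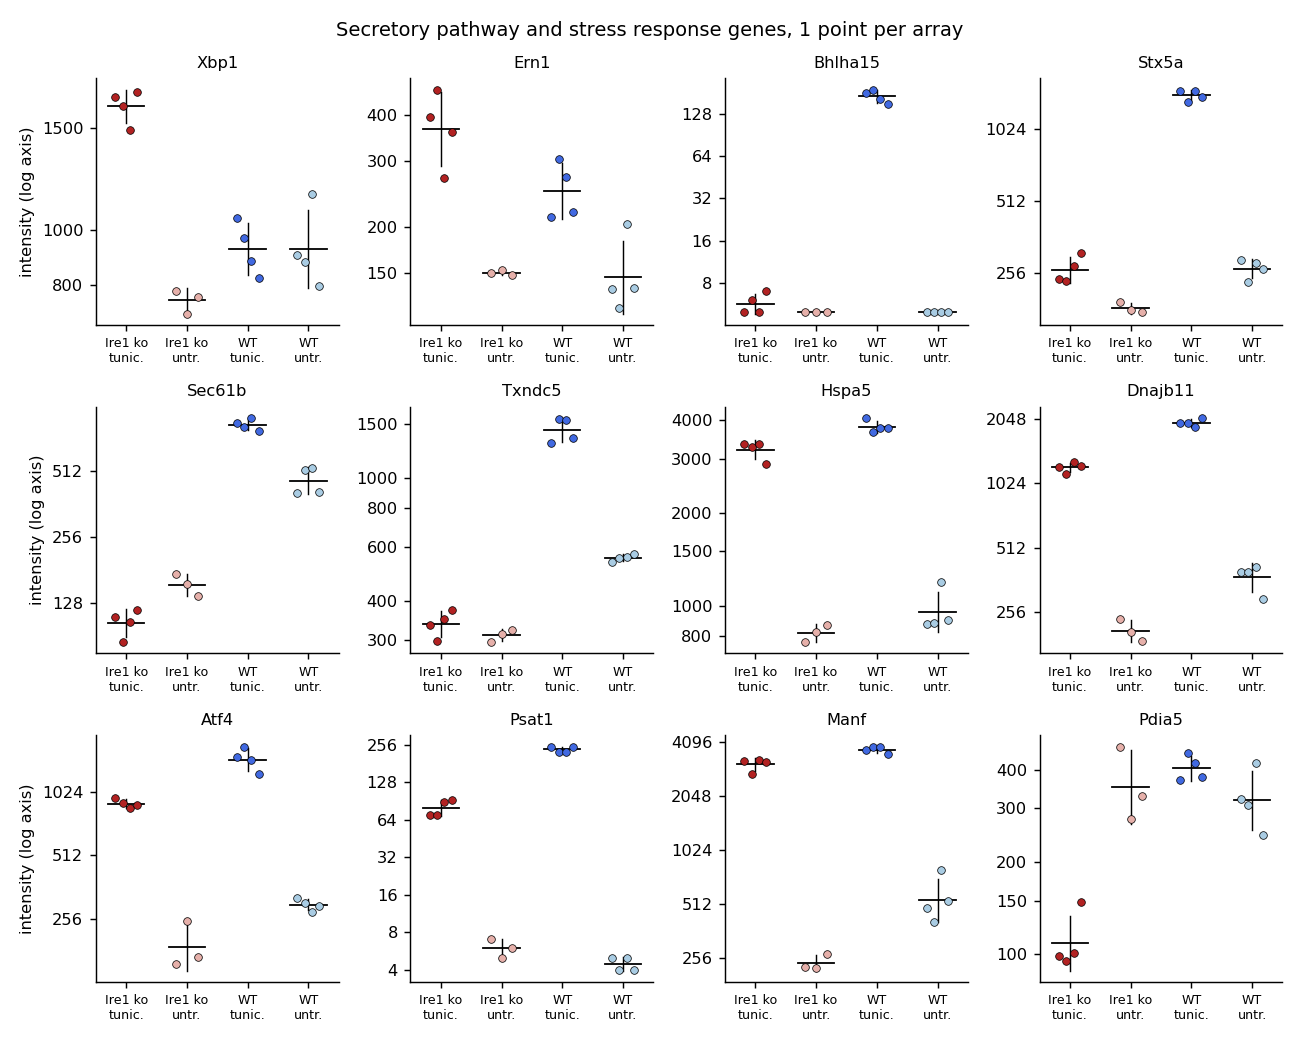
Each panel is a gene, each point an array, and the vertical axis is intensity on a log scale. Bars are means and whiskers standard deviations of log2 intensity (4, 3, 4 and 4 arrays). Txndc5 stays between 298 and 375 in treated Ire1 ko beside 1296 to 1546 in treated WT, while Hspa5 rises to 2879 to 3347 in treated Ire1 ko beside 3646 to 4057 in treated WT.

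Promoter sequences are shown for chaperones that responded alike and for genes whose response was lost, as examples of each pattern that hold a motif known for ATF6 or XBP1s. The counts below are descriptions with no test, and those of the second motif rest on few promoters. The windows are from RefSeq promoters of mouse build GRCm38.p6 (250 bases before to 50 after the start of a gene), searched on both strands and printed on the strand of the gene, 5′ to 3′. Of the 15172 genes tested, 12117 had a promoter. The UPR element known for XBP1s and ATF6, searched as TGACGTGG, is in capitals in the first set, from genes with a lost upward response.
Kdelr3, chr15:79516333-79516407, plus strand: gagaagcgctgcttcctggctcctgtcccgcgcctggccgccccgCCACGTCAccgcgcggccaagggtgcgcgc
Sec24d, chr3:123267425-123267495, plus strand: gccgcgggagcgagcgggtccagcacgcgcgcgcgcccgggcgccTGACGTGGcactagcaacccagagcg
Txndc5, chr13:38528000-38528097, minus strand: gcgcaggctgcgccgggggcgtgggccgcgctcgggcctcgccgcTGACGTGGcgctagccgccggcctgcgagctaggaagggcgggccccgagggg
Isg20, chr7:78913700-78913764, plus strand: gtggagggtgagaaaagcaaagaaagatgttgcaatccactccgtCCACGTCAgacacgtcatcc
The ER stress response element, also known for both ATF6 and XBP1s, was searched as CCAAT, 9 bases of any kind and CCACG. It is in capitals in the second set, from genes with a similar upward response.
Hspa5, chr2:34771980-34772088, plus strand: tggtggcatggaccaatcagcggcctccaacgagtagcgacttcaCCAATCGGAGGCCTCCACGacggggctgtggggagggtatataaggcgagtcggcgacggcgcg
Pdia6, chr12:17266446-17266554, plus strand: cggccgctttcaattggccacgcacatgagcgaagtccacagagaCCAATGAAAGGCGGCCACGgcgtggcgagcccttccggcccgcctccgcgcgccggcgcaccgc
Calr, chr8:84847030-84847138, minus strand: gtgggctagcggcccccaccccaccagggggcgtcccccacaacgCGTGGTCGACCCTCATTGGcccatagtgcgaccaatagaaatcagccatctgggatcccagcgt
Canx, chr11:50325755-50325863, minus strand: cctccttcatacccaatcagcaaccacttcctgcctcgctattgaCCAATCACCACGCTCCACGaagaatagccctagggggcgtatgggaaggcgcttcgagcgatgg

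The UPR element was in the promoter of 15 of 267 lost upward genes with a promoter (5.62%) and 6 of 142 blunted upward genes (4.23%). It was in 6 of 699 similar upward genes (0.858%), in 117 of all 12117 genes tested (0.966%), in 1.14% of those that reached a group mean of 16 and in 0.714% of all 27025 genes with a promoter. Another 20 upward genes with it were undecided. The lost genes with it included Kdelr3, Sec24d, Stx5a, Txndc5 and Isg20. Its inner letters GACGTG, looked for after the first counts were seen, were in 29.6% of lost, 21.8% of blunted and 12.7% of similar upward genes, and in 9.62% of genes tested. The longer UPR element holds these inner letters, their core and the reverse complement of CCACG, so the counts of these motifs overlap. CCACG, which ends the ER stress response element, was in 65.9% of lost, 69% of blunted and 55.4% of similar upward genes. It was in 47% of genes tested. The core ACGT alone was in 62.9% of lost, 63.4% of blunted and 53.1% of similar upward genes, and in 41% of genes tested. These patterns also differ in the size of the WT response. Its median was 1.44 over all lost, 1.84 over all blunted and 0.53 over all similar upward genes. The part of response size in the motif shares was not tested.

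The ER stress response element was in 0 of 267 lost upward genes, 1 of 142 blunted and 6 of 699 similar upward genes (0.858%). It was in 19 of the genes tested (0.157%) and in 0.266% of those that reached a group mean of 16. Another 7 upward genes with it were undecided: Acnat2, Alg12, Creld2, Derl3, Ero1b, Hnrnpa3 and Syvn1. The 6 similar ones were Calr, Canx, Hsp90b1, Hspa5, Pdia6 and Pan2, of which all but Pan2 are ER chaperones or folding enzymes. Hsp90b1, the chaperone GRP94, rose 3.82-fold in Ire1 ko and 3.66-fold in WT, Pdia6 4.15-fold in Ire1 ko and 3.61-fold in WT, Calr 2.33-fold in Ire1 ko and 2.39-fold in WT, and Canx 1.71-fold in Ire1 ko and 1.41-fold in WT. The amino acid response element known for ATF4, searched as TGATGNAAN, was in 2.62% of lost and 2.86% of similar upward genes, and in 3.19% of genes tested. A match is a description of letters in these windows and not a site of binding.

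The sensors themselves were divided. Of 14 measured genes of ATF6 processing and stress sensing, the interaction was lower in 4 and higher in 1, which was Xbp1. Eif2ak3, which encodes PERK, had 14, 17, 15 and 19 in Ire1 ko with tunicamycin and 11, 11 and 9 in untreated Ire1 ko, against 102, 124, 116 and 148 in WT with tunicamycin and 14, 12, 15 and 17 in untreated WT. The interaction was -2.43 ± 0.22 (SE, adjusted p = 3.89e-06). Atf6 had 204, 219, 213 and 212 in Ire1 ko with tunicamycin and 65, 50 and 49 in untreated Ire1 ko, against 346, 372, 379 and 371 in WT with tunicamycin and 83, 83, 87 and 86 in untreated WT. Both responses of Atf6 were without overlap, 3.91-fold in Ire1 ko and 4.33-fold in WT, and the interaction was -0.15, with a 95% interval of -0.44 to 0.14. A dimmer probe set of Atf6, with a highest group mean of 68.5, had a lower interaction, -0.70 ± 0.18 (SE). It did not pass the test over all probe sets (adjusted p = 0.0592). The Atf6 relative Atf6b had an interaction of -1.31, the membrane-bound transcription factor Creb3 -0.68 and Wfs1, an ER protein involved in ATF6 turnover, -1.08.

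Most targets of PERK and ATF4 rose in both genotypes. Of 35 measured members 26 rose and 2 fell in Ire1 ko, with a median of 1.86, and 25 rose and 2 fell in WT, with a median of 1.90. The interaction was lower for 7 and higher for 2, with a median of -0.14, while 6 members responded alike and 15 were undecided. In treated liver 10 members were lower in Ire1 ko than in WT and 1 was higher. In untreated liver 3 were lower and 0 higher. Atf4 had 950, 905, 853 and 889 in Ire1 ko with tunicamycin and 156, 251 and 169 in untreated Ire1 ko, against 1491, 1673, 1440 and 1235 in WT with tunicamycin and 320, 305, 276 and 294 in untreated WT. It rose 4.79-fold in Ire1 ko and 4.87-fold in WT. The interaction was -0.02, with a 95% interval of -0.42 to 0.37, and its treated levels did not overlap between the genotypes, as they were lower in Ire1 ko.

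The called members with the largest interactions, all lower, were enzymes and transporters of amino acid metabolism. The transporter genes Slc3a2 and Slc38a2 of the list did not share this. Slc3a2 lay at 74 to 112 untreated and 381 to 485 treated in Ire1 ko, against 117 to 156 and 390 to 435 in WT. Slc38a2 lay at 248 to 383 untreated and 531 to 862 treated in Ire1 ko, against 298 to 439 and 405 to 569 in WT. Psat1, of serine synthesis, had 70, 70, 89 and 92 in Ire1 ko with tunicamycin and 7, 5 and 6 in untreated Ire1 ko, against 243, 224, 223 and 247 in WT with tunicamycin and 5, 4, 5 and 4 in untreated WT. Both responses were without overlap, and the interaction was -1.97 ± 0.20 (SE, adjusted p = 1.43e-05). Aldh18a1, of proline synthesis, was at the floor in Ire1 ko with 4, 4, 4 and 6 after tunicamycin and 4 on each untreated Ire1 ko array, against 61, 50, 27 and 56 in WT with tunicamycin and 4, 4, 4 and 5 in untreated WT. Chac1, which degrades glutathione, and Slc7a1, a carrier of cationic amino acids, had interactions of -2.30 and -2.12.

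The transcription factors of this arm were high in both genotypes. Ddit3, which encodes CHOP, had 2976, 2902, 3002 and 2896 in Ire1 ko with tunicamycin and 14, 117 and 16 in untreated Ire1 ko, against 3946, 4138, 3458 and 3389 in WT with tunicamycin and 16, 18, 11 and 14 in untreated WT. One untreated Ire1 ko array, replicate 2, was higher than the other untreated arrays. The interaction was -1.37 with a 95% interval of -2.78 to 0.03, and it did not pass the test (adjusted p = 0.274). Nupr1 rose by 6.32 in Ire1 ko and 7.77 in WT (interaction adjusted p = 0.051), Atf3 by 7.11 in Ire1 ko and 7.75 in WT, and the pseudokinase Trib3 by 6.43 in Ire1 ko and 6.38 in WT. Another probe set of Nupr1 had an interaction of -1.49 ± 0.32 (SE). It passed the test over all probe sets (adjusted p = 0.0226, against 0.149 for the one used). In the list of p53 targets and cell death 0 of 18 genes had a called interaction, against 7.53% of all genes tested, and 8 were undecided. Without untreated Ire1 ko replicate 1, 1 of the 18 was called higher. Cdkn1a of that list, the cell cycle inhibitor p21, rose by 5.67 in Ire1 ko and 5.58 in WT. The 13 NRF2 targets and metallothioneins had 0 called interactions too, with a median of 0.26, and 8 were undecided. Beside the share of all genes, 0 calls in lists this short say little.

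**Figure D4:**
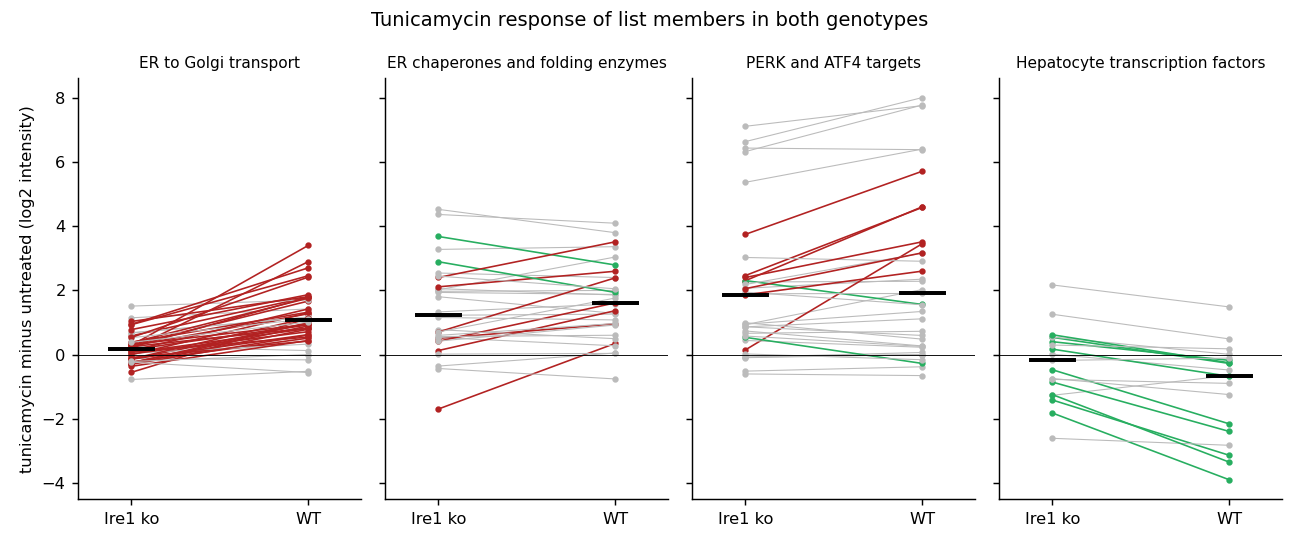
Each line joins the tunicamycin responses of a gene in Ire1 ko (left) and WT (right), in log2 intensity, for 4 gene lists. Red and green lines passed the test of the interaction (lower and higher in Ire1 ko), grey lines did not, and black bars are medians. The median of ER to Golgi transport is 0.16 in Ire1 ko and 1.06 in WT, while that of PERK and ATF4 targets is 1.86 in Ire1 ko and 1.90 in WT.

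Reported substrates of decay by IRE1α are mRNAs that the enzyme can cleave. The list comes from published work that partly used these samples, and its direction here is therefore not independent evidence. Of 15 measured members the interaction was higher in 6 and lower in 0, with a median of 0.36. In WT 10 fell and 0 rose, and in Ire1 ko 6 fell and 0 rose. When arrays shared one median 12 fell in WT and 9 in Ire1 ko, and with quantile normalization 11 in WT and 9 in Ire1 ko. Tmem238 had 179, 163, 215 and 177 in Ire1 ko with tunicamycin and 234, 225 and 232 in untreated Ire1 ko, against 49, 48, 36 and 43 in WT with tunicamycin and 235, 219, 212 and 242 in untreated WT. The fall was without overlap in both genotypes, 1.26-fold in Ire1 ko and 5.19-fold in WT, and the interaction was 2.04 ± 0.16 (SE, adjusted p = 1.17e-06). Bloc1s1, a subunit of complexes that position lysosomes, had 110, 103, 135 and 117 in Ire1 ko with tunicamycin and 208, 199 and 168 in untreated Ire1 ko, against 19, 11, 18 and 22 in WT with tunicamycin and 151, 145, 161 and 148 in untreated WT. It fell without overlap in both, 1.65-fold in Ire1 ko and 8.91-fold in WT.

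The phosphatase Ptprf fell 2.73-fold in Ire1 ko and 7.44-fold in WT. Hgsnat, a lysosomal acetyltransferase, had an interaction of 1.28, the sialyltransferase St3gal3 one of 1.31 and Tex264, a receptor for ER autophagy, one of 0.70, a call kept in 6 of 15 such fits, each lacking an array. None of the 15 members differed between untreated genotypes by the test, where 0 were higher and 0 lower in Ire1 ko, while 7 were higher and 0 lower in Ire1 ko with tunicamycin. Grb7, a signalling adaptor outside the list, had 59, 50, 72 and 58 in Ire1 ko with tunicamycin and 93, 90 and 93 in untreated Ire1 ko, against 14, 10, 19 and 16 in WT with tunicamycin and 118, 104, 101 and 96 in untreated WT. Its interaction was 2.23 ± 0.24 (SE, adjusted p = 2.28e-05), and both falls were without overlap.

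Carboxylesterases, hydrolases of lipids and drugs a list drawn partly from results on these samples and so no independent evidence, included the gene with the highest called interaction among those that reached a group mean of 16. Ces1d had 280, 284, 488 and 518 in Ire1 ko with tunicamycin and 1215, 1189 and 825 in untreated Ire1 ko, against 19, 5, 22 and 28 in WT with tunicamycin and 508, 527, 978 and 1021 in untreated WT. It fell without overlap in both genotypes, 2.82-fold in Ire1 ko and 46.2-fold in WT, and the interaction was 4.04 ± 0.63 (SE, adjusted p = 0.000602). Of 8 measured members the interaction was higher in 4, with values of 1.48 for Ces1f, 1.33 for Ces1e and 0.86 for Ces1c beside Ces1d. Without untreated Ire1 ko replicate 3 only 1 of the 8 was called. The Ces1 genes are close copies, and how far their probe sets share signal was not tested.

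Of 19 measured transcription factors of hepatocytes the interaction was higher in 9 and lower in 0, with a median of 0.69. Of the 9, 4 were blunted, 2 lost and 3 gained. In WT 2 rose and 10 fell, with a median of -0.65, and in Ire1 ko 5 rose and 8 fell, with a median of -0.18. Cebpa, a regulator of liver metabolism, had 413, 394, 499 and 475 in Ire1 ko with tunicamycin and 696, 802 and 927 in untreated Ire1 ko, against 124, 231, 235 and 278 in WT with tunicamycin and 1059, 1192, 958 and 1181 in untreated WT. It fell without overlap in both, 1.81-fold in Ire1 ko and 5.26-fold in WT, with an interaction of 1.54 ± 0.28 (SE, adjusted p = 0.00207). Foxa2, a pioneer factor, had 14, 15, 21 and 17 in Ire1 ko with tunicamycin and 49, 39 and 45 in untreated Ire1 ko, against 6, 9, 10 and 10 in WT with tunicamycin and 65, 74, 102 and 66 in untreated WT. Its interaction was 1.72 ± 0.28 (SE, adjusted p = 0.000848), and treated WT was at or near the floor.

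Onecut1, also known as HNF6, differed before treatment as well. It had 7, 9, 7 and 7 in Ire1 ko with tunicamycin and 23, 36 and 22 in untreated Ire1 ko, against 6, 5, 5 and 7 in WT with tunicamycin and 73, 57, 125 and 100 in untreated WT. The treated genotypes overlapped at the floor and the untreated ones did not, so its interaction of 2.08 goes with an untreated difference of -1.69 (adjusted p = 0.00121). Onecut2 had an interaction of 1.68. Hnf4a, the nuclear receptor at the head of the hepatocyte programme, had 1003, 933, 872 and 878 in Ire1 ko with tunicamycin and 674, 733 and 686 in untreated Ire1 ko, against 573, 602, 648 and 694 in WT with tunicamycin and 747, 620, 701 and 788 in untreated WT. It rose 1.32-fold in Ire1 ko, did not pass the test in WT, where the groups overlapped, and had an interaction of 0.58 ± 0.12 (SE, adjusted p = 0.00803).

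**Figure D5:**
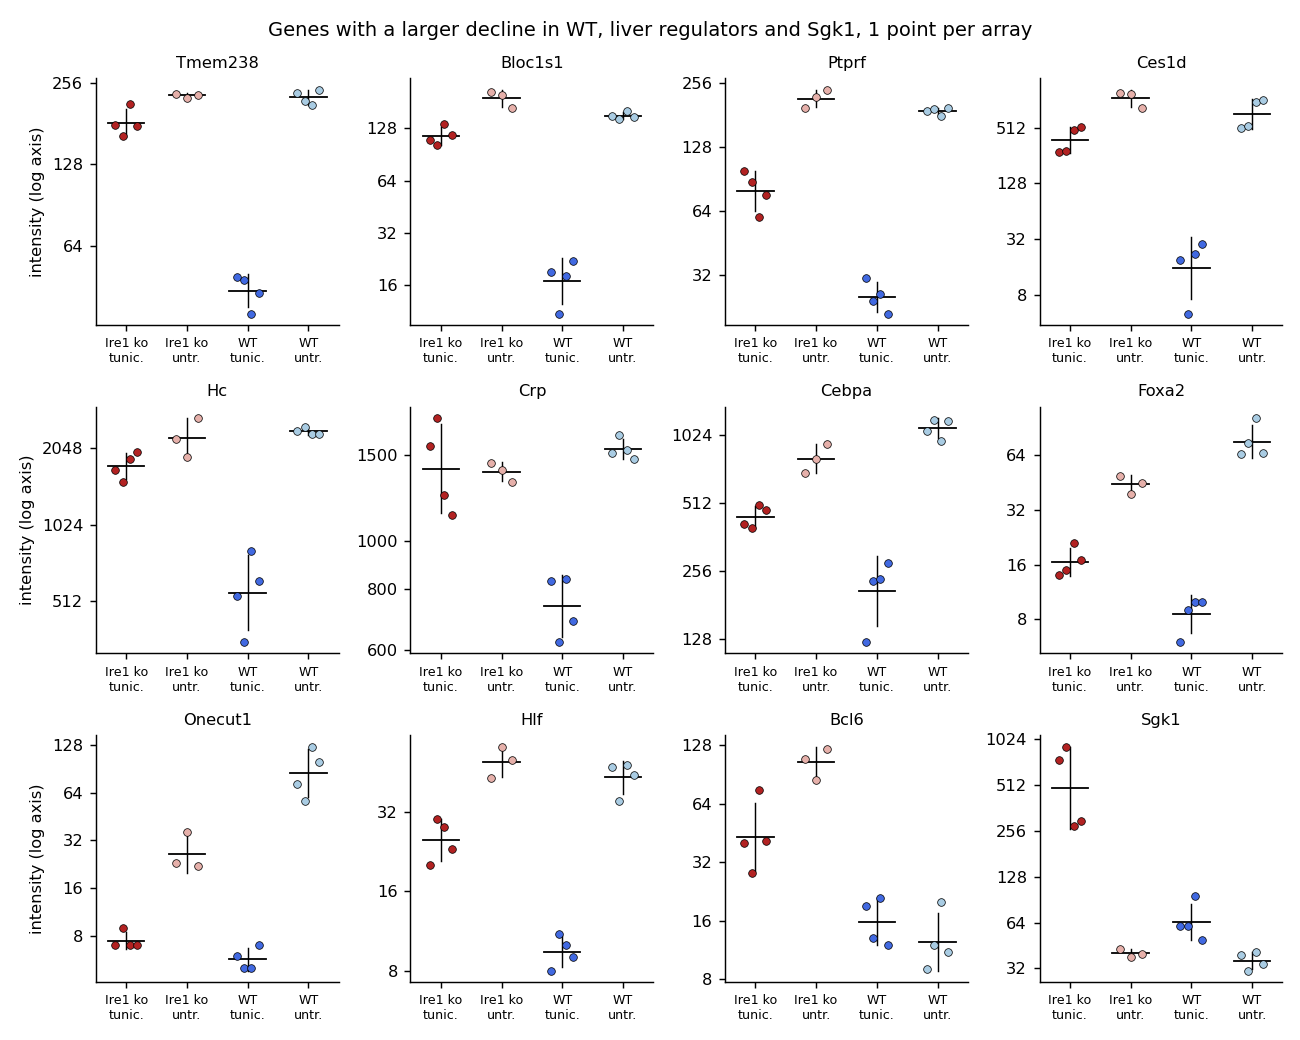
Each panel is a gene, each point an array, and the vertical axis is intensity on a log scale. Bars are means and whiskers standard deviations of log2 intensity (4, 3, 4 and 4 arrays). Ces1d lies between 280 and 518 in treated Ire1 ko beside 5 to 28 in treated WT, and Onecut1 meets the floor in both treated groups.

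Clock genes differed in both directions. Of 18 measured members the interaction was higher in 4 and lower in 2. Arntl, which encodes the clock activator BMAL1, had 23, 31, 47 and 26 in Ire1 ko with tunicamycin and 5 on each untreated Ire1 ko array, against 86, 58, 117 and 88 in WT with tunicamycin and 5, 4, 4 and 4 in untreated WT. It rose without overlap in both, with an interaction of -1.71 ± 0.32 (SE, adjusted p = 0.00247). The output factors Dbp and Hlf fell in both genotypes, Dbp by 1.25 in Ire1 ko and 3.35 in WT and Hlf by 0.99 in Ire1 ko and 2.19 in WT. The hour of day at which mice were killed is not labelled, and its part in the result was not tested.

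In the list of growth hormone responses 3 of 16 measured genes had a called interaction, Bcl6, Cish and Onecut1 (which is in both lists), and all 3 also differed between the untreated genotypes. Bcl6, a repressor, had 40, 28, 75 and 41 in Ire1 ko with tunicamycin and 109, 85 and 123 in untreated Ire1 ko, against 19, 13, 21 and 12 in WT with tunicamycin and 9, 12, 20 and 11 in untreated WT. It was one of the 12 genes higher in untreated Ire1 ko, by 3.07 (adjusted p = 5.05e-05), and it fell in Ire1 ko by 1.28 while the WT groups overlapped. Its interaction of -1.62 (adjusted p = 0.0267) was kept in 5 of 15 fits that each lacked an array. Cish, a feedback inhibitor of growth hormone signalling, had 7, 7, 8 and 7 in Ire1 ko with tunicamycin and 19, 23 and 11 in untreated Ire1 ko, against 8, 7, 8 and 6 in WT with tunicamycin and 50, 45, 71 and 45 in untreated WT. As for Onecut1, the treated groups met near the floor and the untreated groups did not overlap (difference -1.62, adjusted p = 0.000711).

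Secreted plasma proteins are a main product of hepatocytes. Of 31 measured complement and coagulation genes 20 fell and 1 rose in Ire1 ko, and 24 fell and 0 rose in WT. The interaction was higher for 4 and lower for 0, with a median of 0.31, while 10 members responded alike and 11 were undecided. The 4 were 2 when arrays shared one median, and 2 without untreated Ire1 ko replicate 1. Hc, which encodes complement C5, had 1685, 1507, 1846 and 1973 in Ire1 ko with tunicamycin and 2230, 1885 and 2686 in untreated Ire1 ko, against 536, 353, 804 and 613 in WT with tunicamycin and 2396, 2480, 2322 and 2330 in untreated WT. The Ire1 ko groups overlapped and the WT groups did not, with an interaction of 1.74 ± 0.26 (SE, adjusted p = 0.000501). Crp, an acute phase protein, fell 2.08-fold in WT and had a response of 0.02 in Ire1 ko, and it was the 1 gene called among 22 of that list. Hal, which breaks down histidine, fell 3.35-fold in Ire1 ko and 10.3-fold in WT.

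Metabolic lists are given beside the 3.58% higher and 3.95% lower of all genes tested. The interaction was called for 0 of 25 cytochrome P450 genes, 3 higher of 22 lipogenic genes, 1 higher and 1 lower of 20 genes of fatty acid oxidation, 1 higher and 1 lower of 19 of cholesterol synthesis, 2 higher of 16 of bile acid synthesis and 3 higher of 16 of urea cycle and amino acid breakdown. Many members of these lists were undecided, such as 12 of 19 for cholesterol synthesis and 11 of 22 for lipogenesis. Genes of the respiratory chain had 2 higher and 1 lower of 28, and 22 of them responded alike within the limits. Their list medians, -0.23 in Ire1 ko and -0.38 in WT, are smaller than those limits. Proteasome genes had 4 lower and 0 higher of 28, and 14 responded alike within the limits. Yet 17 of the 28 fell and 3 rose in Ire1 ko, and 6 fell and 4 rose in WT. The medians were -0.28 in Ire1 ko and -0.12 in WT, also smaller than the limits. When arrays shared one median, 19 fell in Ire1 ko and 12 in WT. Ribosomal protein genes had 1 higher and 0 lower of 28, and 0 higher under either other scaling. Of these 20 rose in Ire1 ko and 11 in WT on the deposited scale, but 2 in Ire1 ko and 2 in WT when arrays shared one median, and 20 in Ire1 ko and 16 in WT with quantile normalization.

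Enlarged and gained responses were fewer, and among them several genes were quiet in WT. Sgk1, a kinase of salt and growth signalling, had 743, 911, 276 and 296 in Ire1 ko with tunicamycin and 43, 38 and 40 in untreated Ire1 ko, against 61, 61, 95 and 49 in WT with tunicamycin and 39, 31, 41 and 34 in untreated WT. It rose without overlap in both, by 3.59 in Ire1 ko and 0.84 in WT on the log2 scale, and the treated Ire1 ko arrays lay in pairs far from each other. Crip2, a LIM domain protein, had 481, 390, 356 and 413 in Ire1 ko with tunicamycin and 174, 107 and 142 in untreated Ire1 ko, against 136, 127, 162 and 138 in WT with tunicamycin and 146, 134, 138 and 131 in untreated WT. It rose 2.95-fold in Ire1 ko, while the WT groups overlapped (interaction 1.53 ± 0.20 SE, adjusted p = 0.000123). Pml, the organiser of nuclear bodies, gained a rise with an interaction of 1.96, and Ermp1, an ER metallopeptidase, had an enlarged rise, 3.20-fold in Ire1 ko and 1.35-fold in WT.

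Plcxd2, of a phospholipase C-like family, had the largest enlarged fall. It had 35, 38, 28 and 49 in Ire1 ko with tunicamycin and 525, 500 and 454 in untreated Ire1 ko, against 239, 248, 374 and 274 in WT with tunicamycin and 633, 666, 677 and 660 in untreated WT. It fell without overlap in both, 13.4-fold in Ire1 ko and 2.36-fold in WT, with an interaction of -2.50 ± 0.23 (SE, adjusted p = 4.46e-06). Lipa, the lysosomal acid lipase, gained a fall of 1.74-fold in Ire1 ko, with an interaction of -1.07.

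Among reversed responses, Pdcd4, an inhibitor of translation, had 94, 110, 120 and 151 in Ire1 ko with tunicamycin and 288, 365 and 306 in untreated Ire1 ko, against 440, 368, 520 and 466 in WT with tunicamycin and 369, 291, 348 and 310 in untreated WT. It fell in Ire1 ko by 1.44 without overlap and rose in WT by 0.44, where 1 treated array lay just below the highest untreated one. Hjv, a co-receptor that controls hepcidin and iron, had 161, 132, 177 and 138 in Ire1 ko with tunicamycin and 73, 82 and 58 in untreated Ire1 ko, against 48, 39, 65 and 69 in WT with tunicamycin and 89, 92, 91 and 85 in untreated WT. It rose in Ire1 ko by 1.10 and fell in WT by 0.73, both without overlap. Fermt2, an integrin activator, rose in Ire1 ko by 1.03 and fell in WT by 0.35, Sorbs3, an adhesion protein, rose by 0.80 and fell by 1.65, and Retreg3, another receptor for ER autophagy, rose by 0.63 and fell by 1.62 in the same order of genotypes.

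Markers of other cell types were measured beside these lists. Of 16 macrophage markers 0 had a called interaction, with a median of 0.46, which is 2 called and a median of 0.97 without untreated Ire1 ko replicate 1. In Ire1 ko 0 fell and 0 rose, and in WT 5 fell and 0 rose. The falls in WT were 11 when arrays shared one median, 9 with quantile normalization and 9 without that Ire1 ko array, against 0 in Ire1 ko under each. Their summed intensity ranged from 1145 to 1601 in Ire1 ko with tunicamycin and from 1046 to 3210 in untreated Ire1 ko, against 785 to 1051 in WT with tunicamycin and 1060 to 2128 in untreated WT, and 2 or 3 of the 16 had a group mean under 16. The Kupffer cell marker Clec4f had 84, 70, 88 and 121 in Ire1 ko with tunicamycin and 245, 83 and 89 in untreated Ire1 ko, against 61, 83, 66 and 74 in WT with tunicamycin and 102, 133, 178 and 79 in untreated WT. Replicate 1 of untreated Ire1 ko was far above the other arrays of its group, and the groups overlapped within both genotypes. The 16 endothelial markers had a median interaction of 0.27 and the 12 of stellate cells and fibroblasts one of 0.11, with 0 called in either. Their sums ranged from 862 to 1491 and from 741 to 1421. The lymphocyte and neutrophil markers, 11 and 9 genes, had group means under 16 throughout and 0 calls. The part of cell composition in the results above was not tested.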

How the data were processed

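Liver RNA was measured on Affymetrix arrays. The deposited values were linear intensity per probe set in whole numbers, and per the submitters' processing notes the authors made them with RMA and affy, with no versions given. Precision is limited by the number of arrays. Of 45037 probe sets, 28898 had 1 gene symbol in the array annotation. For each gene the probe set of highest mean in all 31 arrays was taken, and genes were tested if they exceeded the 30th percentile of the array on 3 or more of the 15 arrays.

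Log2 intensities of the 4 groups were fitted in one model with limma 3.58.1 in R 4.3.3 (lmFit, eBayes with an intensity trend), with Benjamini-Hochberg adjustment over 15172 genes and a two-sided threshold of 0.05. In simulated data with 200 changed genes among 15172, the interaction was recovered for 21.5% of genes changed 1.5-fold, 63.3% changed 2-fold and 95.5% changed 4-fold, and 8.76% of calls were false. The changed genes were drawn only from those with a mean intensity of 16 or more, so recovery of dimmer genes was not simulated.

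The members, the gene lists, the motifs and the tests were chosen with earlier results of these data known. Genes were named by rule: Xbp1 and Ern1, the 10 highest and 10 lowest called interactions with a group mean of 16, the 5 of smallest p per pattern and direction, the 8 similar genes with the largest WT response, per list up to 4 called and 2 further members, and defining markers of other cell types where their list moved. This gave 199 genes, of which the text gives those its results turn on. Sec24d, Hspa5, Hsp90b1, Pdia6, Calr, Canx, Pan2, Manf, Trib3, Atf3, Tex264, Hnf4a, Slc3a2 and Slc38a2 were chosen after their values were seen. Pan2, Slc3a2 and Slc38a2 are not among the 210 genes counted as named below.

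The alternatives tried were the filter, the normalization, a pseudocount, other probe sets, all 31 arrays, eBayes without the trend, array weights, a replicate block, other pattern boundaries and leaving out each array. List counts without untreated Ire1 ko replicates 1 and 3 and fits of the other probe sets were added after seeing the data.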

Additional observations from a re-analysis of the deposited data

Results flagged for a closer look

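The responses that differed between Ire1 ko and WT by the test of the interaction were 506 lost, 307 blunted, 51 enlarged, 153 gained and 115 reversed ones.

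In 7 of 235 groups of 4 arrays 1 array lay far from the others by Dixon's test, which chance alone gives in about 1 of 20 groups. In Ire1 ko with tunicamycin, Stt3a was 132 in replicate 4 against 107 to 111 in the others, Pdia5 was 148 in replicate 4 against 95 to 101, and Manf was 2733 in replicate 2 against 3194 to 3271. In untreated WT, Hspa5 was 1195 in replicate 3 against 872 to 901, and Dnajb11 was 296 in replicate 4 against 395 to 414. Replicate 1 of that group had 58 for Onecut2 against 47 to 48 and 37 for Sorbs3 against 23 to 24.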

How the results depend on the processing

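Leaving out 1 array at a time gave 926 to 1108 interaction calls, 358 to 573 higher and 502 to 618 lower, with 3559 to 4208 calls for the Ire1 ko response and 5058 to 5568 for WT. The patterns ranged from 420 to 489 lost, 240 to 292 blunted, 1356 to 1513 similar, 30 to 56 enlarged, 108 to 168 gained and 88 to 125 reversed genes. The enlarged count was 30 without untreated Ire1 ko replicate 3 and 32 without WT tunicamycin replicate 4. It was 87 when only genes with a group mean of 16 were tested and 78 in one fit over all 31 arrays. Similar genes numbered 2622 when arrays were shifted to one median over the brighter probe sets, 3541 on the scale of log2(intensity + 16), 2547 with the mean over all probe sets of a gene and 4195 when the interval was allowed to reach 2-fold. With the boundary of lost responses at a ratio of 1/2, 124 were blunted and 76 reversed. Apart from those boundaries, the cause of these shifts was not tested.

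Same-numbered arrays of different groups were compared by their deviations from the group means: 6 of 21 pairs correlated above 0.1 (range -0.161 to 0.26) and 7 of 15 arrays correlated best with their own number, so the numbers were not taken to pair the mice. A replicate block gave 977 interaction calls, 445 higher and 532 lower, of which 931 were also called without the block. Of 210 named genes 144 were called, of which 113 kept the call in all 15 fits without 1 array and 116 in all 10 other settings, and 0 values reversed. Of 57 other probe sets of these called genes that reached a group mean of 16, all 57 had the same sign and 42 passed the test. The floor limits responses of dim genes, and with 3 or 4 arrays a group a difference of 1.5-fold was seldom recovered in simulation, where only brighter genes were changed.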
